A study of Zea mays with 4 samples.

Results

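Pyruvate phosphate dikinase (PPDK) is encoded in the deposited maize gene models by 2 genes, ppdk1 (GRMZM2G306345) and ppdk2 (GRMZM2G097457), which were taken by their identifiers from the 110028 models measured. The samples were 4 replicate libraries of 1 group. All came from the reference inbred B73 at 6 days after pollination (DAP) and from the central starchy endosperm, the storage tissue inside the maize kernel. Plants were grown in a greenhouse and self-pollinated, and the tissue was cut from kernel sections by laser capture. Its RNA was amplified before barcoded libraries were made for 1 sequencing lane. There was no second tissue, stage or genotype, so every comparison below is between genes or between libraries. Whether the libraries stem from separate plants or ears is not in the labels, so p-values apply to these libraries only, whose differences may be partly technical. The chi-square tests below set differences between libraries against counting error alone, and not against the spread between replicates. Neither sequences nor transcript lengths of the genes were used here.

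PPDK interconverts pyruvate and phosphoenolpyruvate (PEP), using ATP and phosphate in the direction of PEP and releasing AMP and pyrophosphate. In maize leaves the chloroplast form regenerates PEP, the primary CO2 acceptor of C4 photosynthesis. Cereal endosperm carries out no C4 cycle but is known for cytosolic PPDK. The ppdk1 gene is known for a pair of promoters: the upstream one gives the chloroplast form, with a transit peptide, and the one inside the gene gives a cytosolic form. The reference table lists both C4ppdkZm1 and cyppdkZm1 as names of the ppdk1 model, and cyppdkZm2 as a name of ppdk2. The deposited files give 1 value per model, so the chloroplast and cytosolic transcripts of ppdk1 cannot be told apart here.

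Both PPDK genes were transcribed in every library, and ppdk1 had several times the read share of ppdk2. Levels are given in RPM, the share of a library's summed gene signal per 1000000. In replicates 1 to 4, ppdk1 stood at 1055, 1149.9, 917 and 551 RPM, a mean of 918 ± 263 RPM (SD, n = 4). These values rest on 3621, 6242, 4360 and 3018 reads. Replicates 1 to 3 lay closer to one another than to replicate 4, which was the lowest by a wide margin. The exact (Clopper-Pearson) 95% interval in replicate 4, 532 to 571 RPM, did not reach that of the next lowest library, replicate 3, which ran from 889.98 to 945 RPM. The intervals of replicate 1, 1021 to 1090 RPM, and replicate 2, 1122 to 1179 RPM, overlapped no other interval either. The intervals cover counting error within a library only. They may be too narrow even for that, because the RNA was amplified without molecular identifiers and several reads can stem from 1 molecule.

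The second gene, ppdk2, stood at 144, 125, 97.8 and 114 RPM in replicates 1 to 4, with 493, 677, 465 and 622 reads. Its mean was 119.9 ± 19.3 RPM (SD, n = 4). Replicate 4 lay between replicates 2 and 3 for this gene, so the low library of ppdk1 was not the low library of ppdk2. The groups of ppdk1 and ppdk2 values did not overlap, since the lowest ppdk1 value, 551 RPM, exceeded the highest ppdk2 value, 144 RPM.

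**Figure D1:**
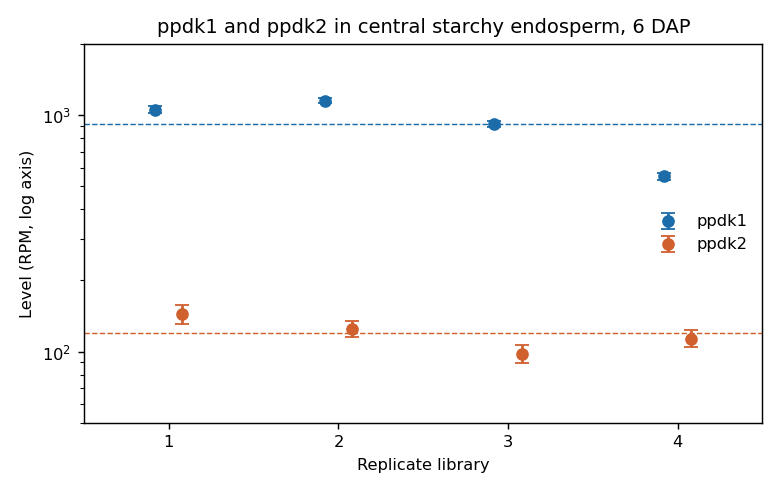
Level of ppdk1 and ppdk2 in each replicate library (RPM, log axis), with exact 95% counting intervals as bars and the mean of the 4 libraries as a dashed line for each gene. The ppdk1 points run from 551 to 1149.9 RPM and are lowest in replicate 4, while ppdk2 runs from 97.8 to 144 RPM and is lowest in replicate 3.

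By rank, ppdk1 was among the most abundant models of this non-photosynthetic tissue. It stood at rank 84, 67, 107 and 236 in replicates 1 to 4, out of 20382 to 21470 models detected at 1 RPM or more. That placed it within the top 0.498% of detected models in replicates 1 to 3 and within the top 1.16% in replicate 4. By mean level it was at rank 104, between LOC103629648 (GRMZM2G043822, 930 RPM) and LOC100286214 (GRMZM2G030915, 918 RPM). Further up stood the chromatin protein gene MNB1B (938 RPM) and the glycolytic glyceraldehyde-3-phosphate dehydrogenase gene gpc1 (939 RPM). Below LOC100286214 followed GRMZM2G144726 (914 RPM) and GRMZM2G157018 (898 RPM).

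Ranks of ppdk2 were 1236, 1496, 1839 and 1598 in replicates 1 to 4, within the top 8.57% of detected models in each. By mean level it was at rank 1511 of the 21181 models that averaged 1 RPM or more. Its neighbours above, at 120.1 to 120.4 RPM, were bx8, GRMZM2G013324 and GRMZM2G136494, and those below, at 119.7 to 119.9 RPM, were GRMZM2G416184, LOC100274429 and LOC100274502. Neighbours at both ranks differed from the PPDK genes by less than the SD between libraries. Ranks compare read shares of transcripts whose lengths were not known, and longer transcripts can give more reads for the same number of molecules.

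**Figure D2:**
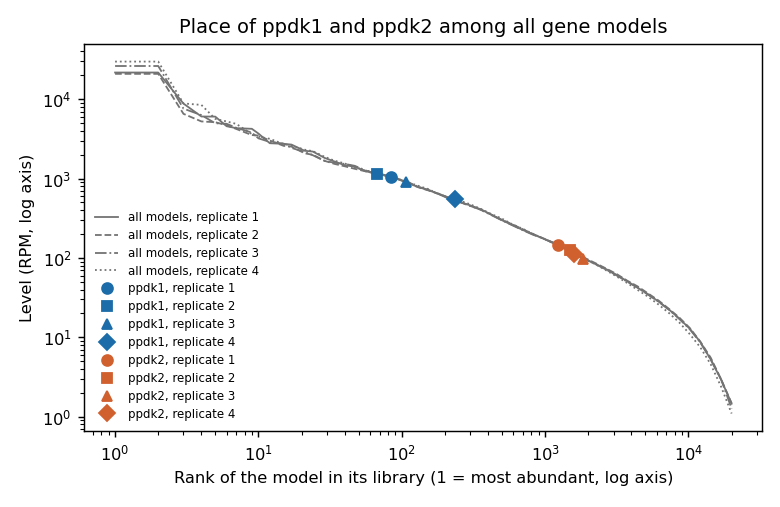
Level of every gene model against its rank within its library (both axes log; 1 = most abundant), drawn as 1 line per replicate, with ppdk1 and ppdk2 marked in each library. In replicates 1 to 4, ppdk1 sits at rank 84, 67, 107 and 236 and ppdk2 at rank 1236, 1496, 1839 and 1598.

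The read ratio of ppdk1 to ppdk2 was 7.34, 9.22, 9.38 and 4.85 in replicates 1 to 4. On the log2(RPM + 0.5) scale the mean difference within libraries was 2.89 ± 0.44 (SD, n = 4), and ppdk1 was higher in 4 of 4 libraries. The exact two-sided sign-flip permutation test gave p = 0.125, which is the smallest p that 4 libraries allow, so this test could not pass 0.05. Of the reads of the pair, ppdk1 took 88.0, 90.2, 90.4 and 82.9%. This is a ratio of reads and not of molecules, since no transcript lengths were at hand. How the authors counted reads that match both genes is not given in the sources used here.

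The ratio itself differed between libraries beyond counting error (chi-square test of the 2 genes by 4 libraries, p = 6.7e-32). This test takes amplified reads as independent and has no replicate of a library. Its highest value was 1.93 times its lowest. Without replicate 4 that span was 1.28-fold (chi-square test, p = 0.00022). For the 6 pairs of libraries, odds ratios with exact 95% intervals were added after the values were seen. Each sets 1 library against 1 other and covers counting error only, so it gives no test over replicates. Replicates 2 and 3 were closest (odds ratio 0.983, interval 0.866 to 1.12). Replicate 1 had an odds ratio of 0.797 against replicate 2 (interval 0.703 to 0.903) and of 0.783 against replicate 3 (interval 0.683 to 0.898). Replicate 4 had the lowest ratio, and the odds ratios of the others against it ran from 1.51 for replicate 1 (interval 1.33 to 1.72) to 1.93 for replicate 3 (interval 1.70 to 2.20).

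**Figure D3:**
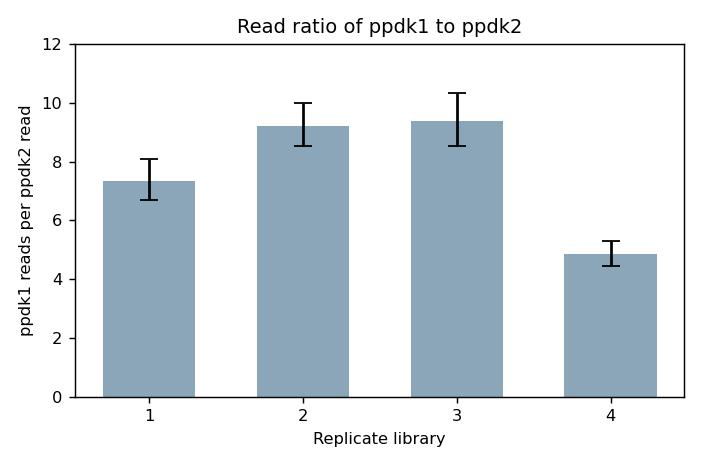
Number of ppdk1 reads per ppdk2 read in each replicate library, with exact 95% binomial counting intervals as bars. The ratio is 9.22 and 9.38 in replicates 2 and 3, 7.34 in replicate 1 and lowest, at 4.85, in replicate 4.

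Each gene was then tested for differences between libraries with a chi-square test on reads recovered from the signal. The test was run over all 16516 models kept by edgeR's filter and compared these libraries, not conditions. Both PPDK genes passed, in a table where 7289 models (44.1%) did, so passing is common here. After TMM scaling, edgeR's correction for library composition, the highest ppdk1 level was 1.90 times the lowest (chi-square, Benjamini-Hochberg adjusted p = 2.3e-196). For ppdk2 the span was 1.46-fold (chi-square, adjusted p = 1.2e-06).

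Leaving out replicate 4 reduced the ppdk1 span to 1.22-fold (chi-square, adjusted p = 3.4e-21), in a table where 2965 models (17.5%) then passed. The ppdk2 span stayed at 1.45-fold without replicate 4 (chi-square, adjusted p = 1.4e-06) and was 1.17-fold without replicate 3 (chi-square, adjusted p = 0.040, with 40.8% of models passing). Thus the spread of ppdk1 rested mostly on replicate 4 and that of ppdk2 on replicates 1 and 3, its highest and lowest libraries.

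Set beside models of similar abundance, ppdk1 varied more than most. The SD of its log2 level over 4 libraries was 0.47, against a median of 0.15 for the 274 models whose mean lay within 2-fold of its own, and 5 of them had a larger SD. Over replicates 1 to 3 alone its SD was 0.16 against a median of 0.11, and 66 of the 274 had a larger one. The biological coefficient of variation (BCV) that edgeR fitted for ppdk1 was 0.212 against 0.170 for the trend at its abundance. Without replicate 4 it was 0.107 against 0.108.

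For ppdk2 the pattern was the other way round. Its SD over 4 libraries was 0.23 against a median of 0.17 for the 2548 models within 2-fold of its level, of which 780 had a larger SD. Over replicates 1 to 3 its SD was 0.28 against a median of 0.12, with 159 above it. The BCV of ppdk2 was 0.169 with a trend of 0.180, and 0.123 with a trend of 0.109 without replicate 4.

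The level of ppdk1 in replicate 4 was 53.0% of its mean in replicates 1 to 3, a log2 difference of -0.91. On this scale 11272 models with a mean of 10 RPM or more had a median difference of -0.10, and relative to that median ppdk1 was at -0.81. Of these models, 5.15% were as low as ppdk1 in replicate 4 or lower. Among the 274 models of similar abundance only GRMZM2G406552 and GRMZM2G406557, chosen here after their values were seen, were lower still, both at -1.84. Their values were nearly identical to each other, so they cannot be counted as separate cases. In contrast, ppdk2 was at 93.0% of its mean in the other libraries, a log2 difference of -0.09. That direction depended on scaling, as TMM put the difference at 0.06 while ppdk1 stayed at -0.76.

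Other genes also stood apart in replicate 4. Markers of the basal endosperm transfer layer (BETL), the cells through which nutrients enter the endosperm, summed to 299, 607, 508 and 66.6 RPM in replicates 1 to 4 over the 8 matched members, and betl3 was at 0 in replicate 4. Most of this sum was betl2, at 191, 436, 329 and 27.2 RPM. The member ebe1 was not low in replicate 4, with 26.2, 22.1, 25.9 and 27.2 RPM, and ebe2 was at 9.90, 14.2, 14.3 and 7.30 RPM. Markers of the embryo-surrounding region (ESR) summed to 29.4, 33.9, 22.9 and 1.64 RPM over 3 members, and esr6 was at 0 in replicate 4. The 6 aleurone markers, from the outer endosperm layer, summed to 135, 134, 127 and 109 RPM, with c1 and r1 at 0 throughout. Of the 4 that averaged 10 RPM or more, 3 were lower in replicate 4, while cr4 was highest there, at 24.5, 26.0, 25.4 and 29.2 RPM. Only sal1 of these 4 passed the chi-square test between libraries (adjusted p = 0.028), which 44.1% of all models passed. The 6 embryo markers summed to 25.3, 26.2, 31.5 and 45.5 RPM, with glb2, wox5b and lec1 at 0 throughout. The 3 maternal floral markers summed to at most 1.46 RPM in any library. The part of these tissues in the level of ppdk1 was not tested. In such bulk samples, fewer cells of a type and less RNA per cell cannot be told apart.

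Among endosperm genes, the PLATZ-type factor gene fl3 was also lower in replicate 4, at 2674, 2188, 2107 and 1399.7 RPM in replicates 1 to 4, a log2 difference of -0.72. The zinc finger factor gene nkd1 differed in the opposite direction, with 44.0, 44.8, 69.6 and 105 RPM and a log2 difference of 1.02. Both differed between libraries in the chi-square test (adjusted p = 4.1e-300 for fl3 and 8.0e-47 for nkd1). A further member of this list, nkd2, was also higher in replicate 4, with 14.0, 22.5, 23.3 and 27.2 RPM (log2 difference 0.47, chi-square adjusted p = 0.00040). Of the 3 matched endosperm genes that averaged 10 RPM or more, 1 was lower in replicate 4. These 3 thus did not move as 1 group with ppdk1 in replicate 4.

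**Figure D4:**
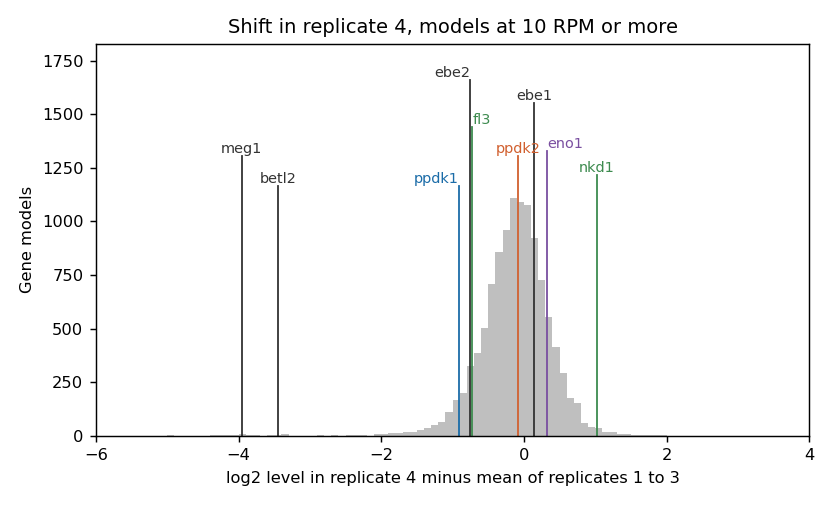
Histogram over 11272 gene models with a mean of 10 RPM or more of the log2(RPM + 0.5) level in replicate 4 minus the mean of replicates 1 to 3, with 9 genes marked by vertical lines whose heights carry no value. The median model is at -0.10, ppdk2 at -0.09, ppdk1 at -0.91, fl3 at -0.72, eno1 at 0.32, nkd1 at 1.02, and the BETL markers betl2, meg1, ebe2 and ebe1 at -3.44, -3.95, -0.75 and 0.14.

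Genes that act with PPDK in the C4 leaf were at or near 0 in these libraries. The C4 PEP carboxylase gene pepc1 (GRMZM2G083841), which fixes bicarbonate onto PEP, had 0 reads in every library. So did the chloroplast NADP-malate dehydrogenase gene mdh6, the Rubisco small subunit gene rbcs1, the photosystem gene psad1 and the chloroplast glyceraldehyde-3-phosphate dehydrogenase gene gpa1. A count of 0 among all 19093384 reads allows a level of up to 0.157 RPM, at 3 reads. The C4 NADP-malic enzyme gene me3 (GRMZM2G085019, also named ME1), which releases CO2 and pyruvate in the bundle sheath, stood at 2.33, 0.921, 2.94 and 2.37 RPM. Of the 15 entries on the list for green leaf and C4 genes, 5 matched a single model. Of these, 4 were at 0 in every library, as were 65.8% of all models, and me3 alone averaged 1 RPM or more, as did 19.3% of all models. The shares are close to those of all models in a list this short, so the values describe these genes and set them apart from nothing.

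The gene pdrp1 encodes the regulatory protein that switches leaf PPDK off and on by phosphorylation with darkness and light. It stood at 0.874, 0.184, 0 and 0 RPM in replicates 1 to 4, which amounts to 4 reads in all. Its level was thus at or below the 3-read floor of 0.548 to 0.874 RPM in every library.

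Most matched genes of the list for PEP and pyruvate were present, with several at high read shares. The list holds enzymes that make or use either compound, and also partner genes such as pdrp1, adk1 and malate dehydrogenases. On this list 13 of 32 entries matched a single model of their own, and 8 of the 13 averaged 1 RPM or more, against 19.3% of all models. That share is over 110028 models, of which 65.8% had 0 reads in every library, while only the 18787 named models could match an entry. The enolase gene eno1, whose product makes PEP, had 4492 ± 790 RPM (SD, n = 4) and eno2 627 ± 71.1 RPM. The cytosolic malate dehydrogenase gene mdh4 stood at 487 ± 17.0 RPM, the malic enzyme gene me2 at 163 ± 11.8 RPM and the pyruvate decarboxylase gene pdc3, of ethanol fermentation, at 123 ± 14.3 RPM. The gene adk1 had 13.1 ± 2.03 RPM, me3 2.14 ± 0.861 RPM and the PEP carboxylase gene pep4 1.60 ± 0.454 RPM. The other 5 averaged under 1 RPM: pdrp1, pdc2, pepc1, mdh6 and pck2, a PEP carboxykinase gene with 0 reads in every library. No entry for pyruvate kinase or alanine aminotransferase could be matched, so these enzymes were not analysed here.

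These genes did not share the low level of ppdk1 in replicate 4. Of the 6 list members that averaged 10 RPM or more, 1 was lower in replicate 4 than in the mean of the others on the RPM scale, against 59.8% of all such models. That member was mdh4, at -0.10 on the log2 scale, and with TMM scaling it was no longer lower. The median difference of the 6 was 0.19, beside -0.10 for all models and -0.91 for ppdk1. In the chi-square test eno1, eno2, me2 and pdc3 differed between libraries, 4 of the 6 that the filter kept, beside the 44.1% of all models. For eno1 the values were 4241, 3495, 4981 and 5252 RPM, lowest in replicate 2 and highest in replicate 4.

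Further genes of PEP metabolism were chosen after the values were seen. Some were added and some came from list entries that had matched more than 1 model. The chi-square p-values given for them compare all 4 libraries at once and do not test replicate 4 alone. Passing is common here, at 44.1% of all models tested. The added PEP carboxylase gene pepcZm2A (GRMZM2G069542) stood at 46.6, 47.9, 48.4 and 31.8 RPM, lowest in replicate 4 as ppdk1 was (log2 difference -0.58, chi-square adjusted p = 0.0057). Under the entry pdh2, GRMZM2G043198, named PDHE1-B after a subunit of pyruvate dehydrogenase, stood at 204, 211, 180.2 and 132 RPM, also lowest there (log2 difference -0.58, chi-square adjusted p = 2.2e-14). The other pdh2 model, GRMZM2G127798, was at 3.29 to 5.05 RPM. It also carries the names PGD and pgd2, so its name does not settle that it encodes pyruvate dehydrogenase. Under pdh1, GRMZM2G361693 was highest in replicate 4 (log2 difference 0.49, chi-square adjusted p = 7.3e-15) and GRMZM2G145715 stood at 18.8 to 22.4 RPM. The PEP carboxylase kinase gene ppck1 stood at 25.3, 21.7, 23.1 and 31.4 RPM and was highest there (log2 difference 0.42, chi-square adjusted p = 0.0016). So were its relatives ppck2 and ppck4, at log2 differences of 0.71 and 0.83 (chi-square adjusted p = 0.0054 and 0.0019). Their means were 5.09 and 5.03 RPM, on 97 reads each, and both were lowest in replicate 2, at 2.39 RPM. The values of ppck2 and ppck4 were nearly identical, so they cannot be counted as separate cases. A further relative, ppck3, at 2.04 to 4.42 RPM, did not pass (chi-square adjusted p = 0.45). Enzymes around PPDK therefore included some that were lower and some that were higher in replicate 4.

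**Figure D5:**
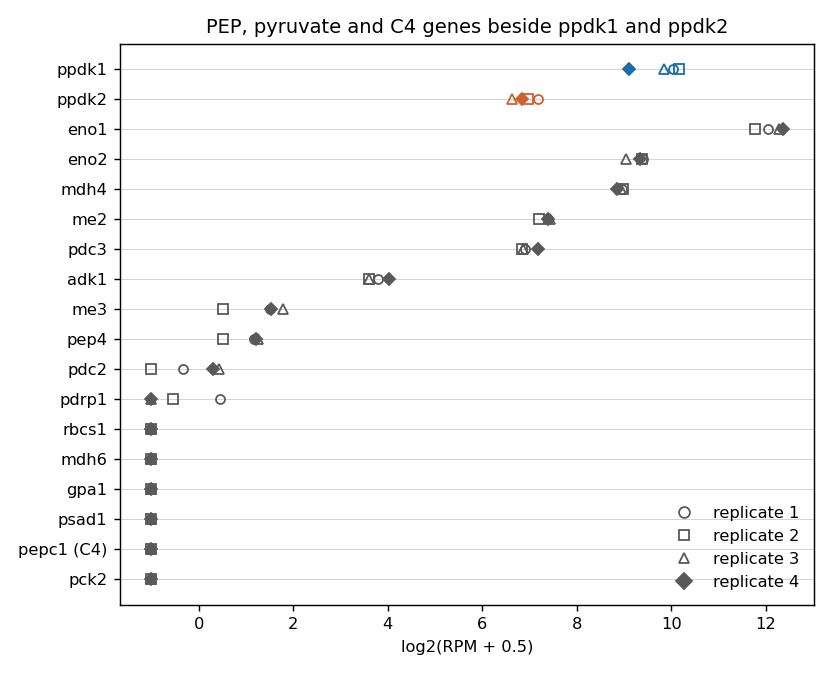
Level of ppdk1, ppdk2 and the matched genes of the PEP, pyruvate and C4 lists as log2(RPM + 0.5), with 1 marker per replicate library and replicate 4 filled. Genes at -1 on this axis had 0 reads: 4 of the 5 green leaf and C4 genes, with pepc1 and pck2, are there in every library, while ppdk1 runs from 551 to 1149.9 RPM. Levels of different genes are read shares, with no correction for length.

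Opaque2 and PBF1, transcription factors known to activate storage genes and ppdk genes of the filling endosperm, were low or not detected at this stage. The o2 model (GRMZM2G015534) had 0 reads in every library. The name pbf1 matched a pair of models, GRMZM2G146267 at 1.64 to 4.05 RPM and GRMZM2G146283 at 0 to 0.921 RPM. Of the other factors on the list, ohp1, an Opaque2-related bZIP gene, had 35.9 ± 1.26 RPM (SD, n = 4) and ohp2 17.5 ± 3.41 RPM. The duplicate of nkd1, nkd2, had 21.8 ± 5.57 RPM and the MADS-box gene mads47 2.13 ± 0.446 RPM. PPDK transcripts were therefore measured in libraries without reads of o2.

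The models whose profile over the 4 libraries came closest to that of ppdk1 were found by the root mean square difference of centred log2 levels, among 11272 models at 10 RPM or more. The nearest was LOC100272931 (GRMZM2G157219), with a difference of 0.017 and 16.9, 17.9, 14.3 and 8.40 RPM in replicates 1 to 4. Next came gpm300, also named SnRK2.7 (GRMZM2G155593), with a difference of 0.019. They were followed by GRMZM5G813989, GRMZM2G102475 and GRMZM5G812485, with differences up to 0.030. In level too, gpm300 and GRMZM5G813989 were nearly identical (means of 37.6 and 37.7 RPM), so they cannot be counted as separate cases. With only 4 libraries and so many models, close matches arise easily. By the same measure ppdk2 was at position 5390 from ppdk1, with a difference of 0.38. Closest to ppdk2 were LOC100193948 (GRMZM2G026013) at 0.017, GRMZM2G303118, GRMZM2G383234, tha9 (GRMZM2G128432) and LOC100194050 (GRMZM2G164714), at up to 0.031.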

How the data were processed

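The authors deposited a scaled signal per gene model, with equal sums over models in all 4 libraries. The submitters' processing notes name bedtools, without version or role. No aligner, genome build, annotation or strand setting is stated in the sources used here. RPM was computed from each deposited signal and its library sum. Within each library every value above 0 was a whole multiple of the smallest such value (100%, tolerance 0.01 read), which gave 3432952 to 5477465 reads per library. In replicate 3 this step lies close to 1, so the effect of leaving it out is also given. Tests on reads were chosen because reads could be recovered, although the deposited unit is not counts, and they called 7289 models.

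Reads were tested per model by chi-square against TMM effective library sizes (edgeR 4.0.16, R 4.3.3) after edgeR's filterByExpr. Benjamini-Hochberg adjustment was made at 0.05, and the procedure was tested on simulated data. The simulated counts spread around their set levels by counting error only, which is what the test assumes. They therefore cannot show how the test performs at the wider spread of these libraries. DESeq2 1.42.0 size factors, total reads, no filter, other pseudocounts and each library left out were alternatives. Permutation and binomial calculations used Python 3.11.15 with scipy 1.17.1. Gene names were taken from RefSeq, Zm-B73-REFERENCE-NAM-5.0, where it lists older identifiers as synonyms (18787 of 110028 models named), and no coordinates were used. List entries that matched no model, or more than 1, were left out of list counts and sums (models of pbf1, pdh1 and pdh2 are given singly), as was pk1, whose model carries the name of another gene. Lists by product description could not be used. Named genes were both PPDK genes, list members, the 5 nearest profiles and 3 neighbours in rank on each side. The members and lists were chosen with earlier results of these data known.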

Additional observations from a re-analysis of the deposited data

Results flagged for a closer look

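Of 40 values examined over the 4 libraries, 6 had a highest or lowest library set apart from the rest by more than Dixon's 95% critical value, which chance alone exceeds in about 1 of 20 groups. Neither ppdk1, ppdk2 nor their ratio was among them. The low ones in replicate 4 were pepcZm2A at 31.8 RPM, sal1 at 42.0 RPM, vpp1 at 14.1 RPM and esr6 at 0 RPM. The esr6 model had only 21 reads over all libraries. The embryo marker wox2a was high in replicate 4 at 21.4 RPM, and pep4 was low in replicate 2 at 0.921 RPM.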

How the results depend on the processing

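Of 47 alternative values, 45 met the rule set for their kind. Means had to move by less than the spread between libraries, and the log2 ratio had to keep its direction. Chi-square results had to stay on their side of the threshold, and counts of models within a set factor of the main count. The exceptions were the ppdk2 mean and the number of models that differed between libraries, 7289 with all libraries. The ppdk2 mean became 153.8 RPM when the 100 most abundant models were left out of the library sum. With that sum the ppdk1 mean rose too, to 1174 RPM, which was within its SD of 263 RPM. Leaving out 1 library at a time gave 2965 to 6863 models that differed between libraries, lowest without replicate 4. The cause was not tested. The log2 ratio of ppdk1 to ppdk2 ran from 2.78 to 3.10 with 1 library left out, and pseudocounts of 0.1 and 1 RPM gave 2.90 and 2.89. Division by coding length was not run, since no coding lengths were at hand. Depth limits pdrp1, esr6 and pep4, with 4, 21 and 30 reads in all. No paired comparison of groups was possible because there was 1 group. The sign-flip test of the ratio paired ppdk1 and ppdk2 within libraries.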
